A study of Mus musculus with 5 samples.

Results

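The G1 regulators described here are the D cyclin genes Ccnd1, Ccnd2 and Ccnd3, the kinase genes Cdk4 and Cdk6, the CDK inhibitor genes Cdkn1a, Cdkn1b and Cdkn2c, and Men1, which encodes menin. They were taken as a fixed list of 9 genes known for β-cell replication. The list was chosen with earlier results of these data known. Of the 9 genes, 8 had a probe set annotated to a single gene symbol, out of 19938 genes with such a probe set. The only probe set of Cdkn1a was annotated to a second gene as well, so Cdkn1a has no value here. Cells came from pancreatic islets of untreated C57BL/6 mice aged 8 to 12 weeks, all heterozygous for the Flattop allele FVR/+, and were sorted by flow cytometry. There were 3 arrays of Flattop-positive cells and 2 of Flattop-negative cells, each made from a pool of 4 to 6 mice whose sex was not determined. The labels do not say what marks a cell as positive, and both fractions carry the same allele.

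D-type cyclins bind CDK4 and CDK6 in early G1, and the active kinases phosphorylate the retinoblastoma protein, which frees E2F factors to switch on genes of S phase. Inhibitors of the INK4 family, such as the Cdkn2c product p18, bind CDK4 and CDK6, while the Cip/Kip proteins p21 (Cdkn1a) and p27 (Cdkn1b) bind cyclin and CDK complexes. Mouse β-cells depend on Cdk4 and Ccnd2 for their postnatal growth. Menin is a tumour suppressor of endocrine cells that works with MLL histone methyltransferases, and in mouse islets it maintains the expression of Cdkn1b and Cdkn2c.

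Values are log2 signals, so 1 unit is a 2-fold change, and the difference is always Flattop-positive minus Flattop-negative. As a floor, the 95th percentile of 1027 olfactory receptor genes was taken on each array. It was 4.29 to 4.45 on the Flattop-positive arrays and 4.75 and 4.86 on the Flattop-negative arrays. Across genes the 2 Flattop-negative arrays had the lowest correlation of any pair (r = 0.846), so each is shown apart. Of 14 β-cell markers, 13 were above the floor on every array. The list had array medians of 9.55 to 9.64 in the Flattop-positive fraction, against 7.77 and 8.18 in the Flattop-negative fraction, with 14 of 14 differences above 0. In such pools, fewer cells of a type and less RNA per cell cannot be told apart. That list was drawn up with earlier results of these data known. Whether it bears on the values below was not tested.

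Men1, Cdk4 and Ccnd2 lay higher on every Flattop-positive array than on either Flattop-negative array, and no member lay lower without overlap. Among all genes tested, 13.7% were higher without overlap and 21.0% lower. None of the 8 members passed an adjusted p of 0.05 in limma, nor did any of the 19938 genes (0%). At an unadjusted p under 0.05, Men1 and Cdk4 were called (2 of 8, both higher), against 8.48% of all genes called higher, 5.37% called lower and 13.8% in either direction. The median difference over the members was 0.78, against -0.10 over all genes. With dim genes left out, the median of the remaining 12899 genes was 0.10, so the sign of this background depends on dim genes. The member median was 1.22 when measured from Flattop-negative replicate 1 alone and 0.43 from replicate 2 alone.

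**Figure D1:**
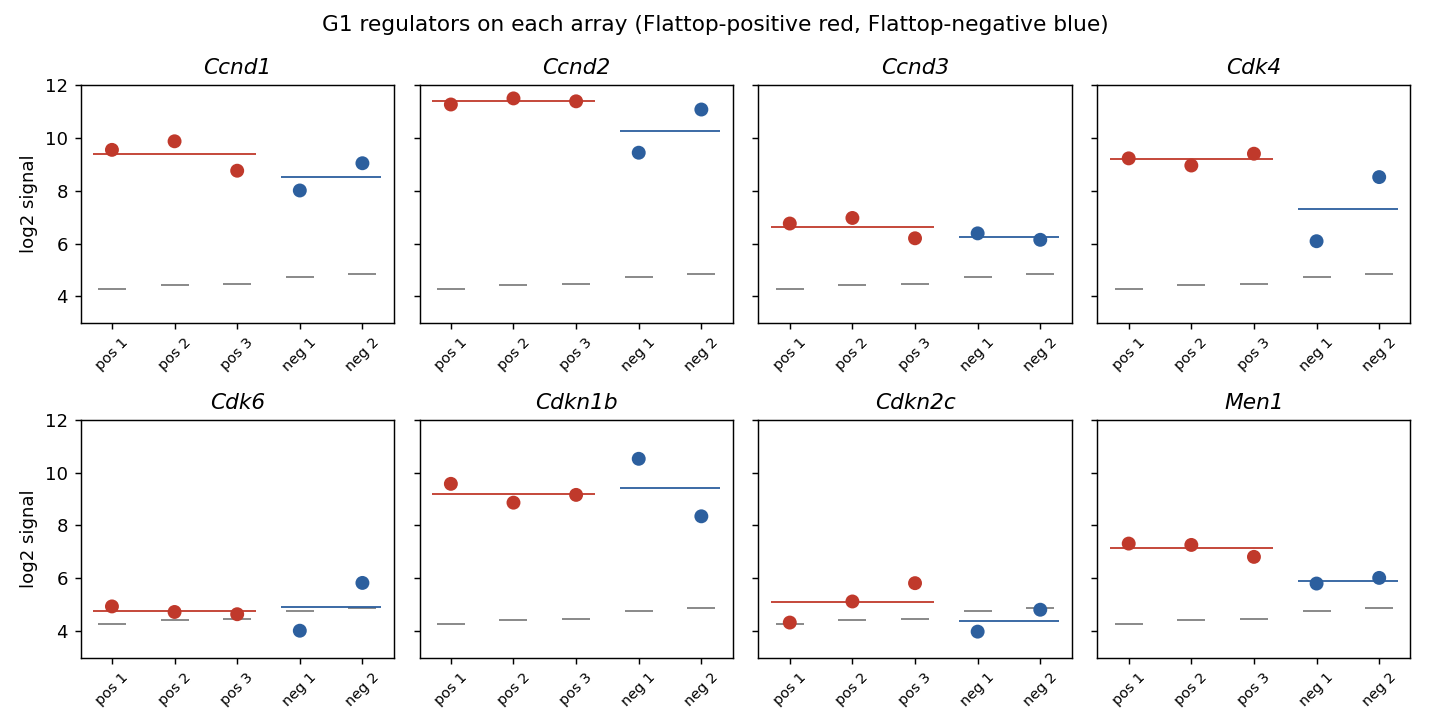
Log2 signal (y axis) of the 8 members on each array (x axis; pos, Flattop-positive replicates 1 to 3, red; neg, Flattop-negative replicates 1 and 2, blue). Points are arrays, horizontal lines are group means, and grey dashes mark the floor of each array. Men1 shows 2 close Flattop-negative arrays below all Flattop-positive ones, while the Flattop-negative arrays of Cdk4 and Cdkn1b lie 2.43 and 2.17 log2 units apart.

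Among the D cyclins, Ccnd2, the main D cyclin of mouse β-cells, had log2 signals of 11.26, 11.49 and 11.38 on the Flattop-positive arrays, against 9.44 and 11.07 on the Flattop-negative arrays. The Flattop-positive arrays stayed within 0.23 log2 units of each other, and Flattop-negative replicate 2 came within 0.19 of them. The group means were 11.38 ± 0.11 (SD, n = 3) and 10.25 ± 1.16 (SD, n = 2), a difference of 1.12 ± 0.49 (SE) with an adjusted p of 0.385 in limma. Measured from Flattop-negative replicate 1 alone the Ccnd2 difference was 1.94, and from replicate 2 alone it was 0.31. Most of the size of the difference thus came from Flattop-negative replicate 1, while all Flattop-positive arrays lay above both.

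Ccnd1, the D cyclin that answers to mitogens in many tissues, had 9.54, 9.87 and 8.76 on the Flattop-positive arrays, against 8.01 and 9.04 on the Flattop-negative arrays. The groups overlapped, since Flattop-positive replicate 3 lay below Flattop-negative replicate 2. Its difference was 0.87 ± 0.46 (SE; limma adjusted p = 0.444), and it was 1.38 from Flattop-negative replicate 1 and 0.35 from replicate 2. Ccnd3, the third D cyclin, had 6.76, 6.97 and 6.20, against 6.39 and 6.14. These overlapped too, and the difference of 0.38 ± 0.29 (SE) was smaller than the 0.77 range of the Flattop-positive arrays (limma adjusted p = 0.558). For all 3 D cyclins the Flattop-positive mean lay above each Flattop-negative array. So it did for 6 of the 8 members, with Cdk4, Cdkn2c and Men1, and for 24.4% of all genes.

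Cdk4, the catalytic partner of D cyclins in mouse β-cells, had the largest difference of the 8 members. Its log2 signals were 9.22, 8.95 and 9.40 on the Flattop-positive arrays, against 6.09 and 8.51 on the Flattop-negative arrays. All Flattop-positive arrays were higher, by 0.44 log2 units at the nearest point, but most of the difference came from Flattop-negative replicate 1. The means were 9.19 ± 0.22 (SD, n = 3) and 7.30 ± 1.72 (SD, n = 2), a 3.71-fold difference in limma (1.89 ± 0.70 log2 units, SE; adjusted p = 0.337). Measured from replicate 1 alone it was 3.10, and from replicate 2 alone 0.68. Leaving out any 1 Flattop-positive array gave 1.79 to 2.01 and ended the call at an unadjusted p of 0.05 each time.

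Cdk6, the second G1 kinase, lay close to the floor and had 4.94, 4.73 and 4.64 on the Flattop-positive arrays, against 4.02 and 5.83 on the Flattop-negative arrays. The Flattop-negative arrays lay on opposite sides of all Flattop-positive arrays, replicate 1 under the floor and replicate 2 above it, an order seen in 7.64% of all genes. The difference of -0.15 ± 0.53 (SE; limma adjusted p = 0.905) was 0.75 from replicate 1 and -1.06 from replicate 2. Thus the 2 kinases shared a low signal on Flattop-negative replicate 1 and differed on replicate 2, where Cdk6 was at its highest.

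The promoter of Cdk4 is shown because the gene had the largest difference and because the window is rich in a motif bound by MYC and related factors. The human CDK4 gene is a known target of MYC. The sequence covers the 250 bases before the first transcribed base in RefSeq (GRCm38.p6, chr10:127063285-127063534, plus strand). Capitals mark the E-box CACGTG, the CCAAT box CCAAT and the GC box GGGCGG, searched on both strands, none of which overlapped here.
Cdk4: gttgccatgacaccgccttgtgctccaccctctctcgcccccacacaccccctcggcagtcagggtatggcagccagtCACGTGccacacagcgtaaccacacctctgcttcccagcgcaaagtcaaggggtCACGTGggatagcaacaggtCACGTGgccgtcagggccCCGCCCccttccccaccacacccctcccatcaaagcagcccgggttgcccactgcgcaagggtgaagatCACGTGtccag

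The Cdk4 window held 4 E-boxes and 1 GC box. Of 32851 RefSeq promoter windows of the same length, 6.02% held at least 1 E-box, and 20 held 3 or more. A match is a description of the letters and shows no binding. Myc itself had 6.97, 5.69 and 9.09 on the Flattop-positive arrays, against 7.11 and 8.85 on the Flattop-negative arrays. Myc was lowest on Flattop-positive replicate 2 and Cdk4 on Flattop-negative replicate 1. Whether MYC bears on the Cdk4 signal in these cells was not tested. RefSeq windows were at hand for 7 of the 9 members, those other than Ccnd1 and Ccnd2, and Cdk6 was the other one with an E-box.

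Cdkn1b, which encodes the inhibitor p27, was the member on which the Flattop-negative arrays disagreed most in direction. Its log2 signals were 9.57, 8.86 and 9.16 on the Flattop-positive arrays, against 10.52 and 8.35 on the Flattop-negative arrays. Replicate 1 lay above and replicate 2 below all Flattop-positive arrays, as for 9.13% of all genes. In either order, the Flattop-negative arrays flanked the Flattop-positive ones in 2 of the 8 members and in 16.8% of all genes. The difference was -0.23 ± 0.65 (SE; limma adjusted p = 0.878), -1.32 from replicate 1 and 0.85 from replicate 2. A dimmer probe set of Cdkn1b had 8.00, 7.93 and 8.01, against 6.39 and 8.22. There Flattop-negative replicate 1 was the lowest array and not the highest, so the probe sets of this gene disagreed and no direction is given for it.

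Cdkn2c, which encodes the INK4 inhibitor p18, had 4.33, 5.12 and 5.82 on the Flattop-positive arrays, against 3.98 and 4.81 on the Flattop-negative arrays. It lay under the floor on both Flattop-negative arrays and just above it on Flattop-positive replicate 1, so the size of its difference is uncertain. That difference was 0.69 ± 0.50 (SE; limma adjusted p = 0.541), less than the 1.49 range of the Flattop-positive arrays. Cdkn2c was highest on Flattop-positive replicate 3. On that array the 23 S phase and mitosis markers also had their highest median, 5.79, against 4.24 and 4.69 on the other Flattop-positive arrays and 4.57 and 5.13 on the Flattop-negative arrays. The medians of 4.24 and 4.57 lay under the floor of their arrays.

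Men1 was the member whose groups stood apart with little spread. Its log2 signals were 7.31, 7.26 and 6.81 on the Flattop-positive arrays, against 5.80 and 6.02 on the Flattop-negative arrays. Every array was above the floor, and the lowest Flattop-positive array exceeded the highest Flattop-negative one by 0.80 log2 units. The means were 7.13 ± 0.28 (SD, n = 3) and 5.91 ± 0.15 (SD, n = 2), a 2.33-fold difference (1.22 ± 0.24 log2 units, SE). The limma adjusted p of 0.214 missed the threshold, and Men1 ranked 251 by p of the 19938 genes.

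The Men1 difference was 1.33 from Flattop-negative replicate 1 and 1.11 from replicate 2. The gap between these arrays was 0.21, smaller than the group difference, whereas the gap exceeded the difference for 6 of the 8 members and for 63.2% of all genes. Men1 was the only member with an unadjusted p under 0.05 as reported and under each of the 12 alternatives that tested the same genes, as were 3.22% of all genes. Its limma adjusted p under the alternatives ran from 0.0845 to 0.804, so the call over all genes was not reached in any of them.

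**Figure D2:**
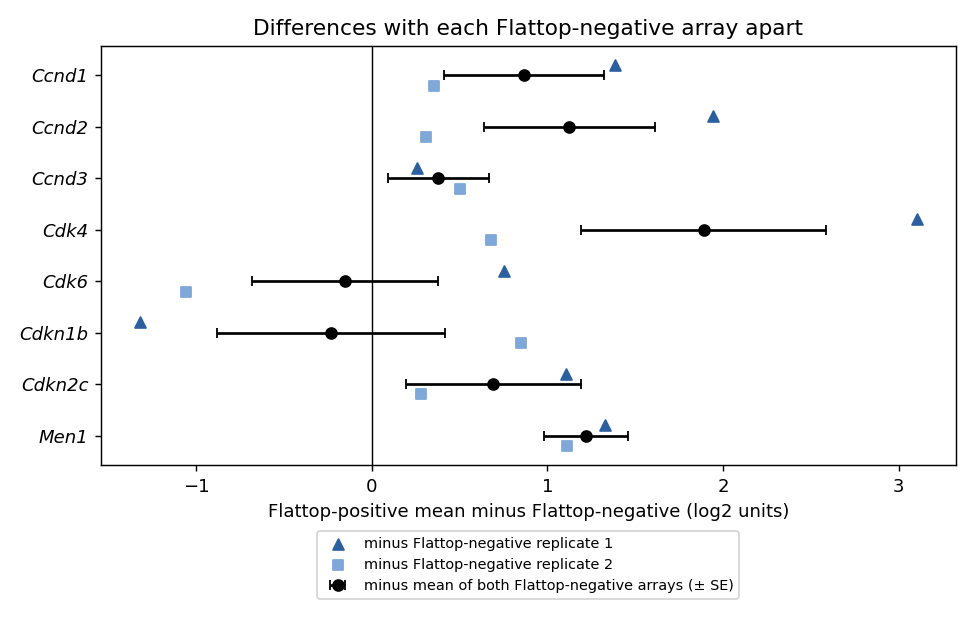
Difference in log2 signal (x axis) for each member (y axis). Circles with bars give the Flattop-positive mean minus the mean of both Flattop-negative arrays, with the moderated SE, and triangles and squares the same mean minus Flattop-negative replicate 1 or 2 alone. For Men1 the symbols fall between 1.11 and 1.33, for Cdk4 between 0.68 and 3.10, and for Cdk6 and Cdkn1b on both sides of 0.

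The Men1 promoter is shown as that of the member with the smallest p. It covers the 250 bases before the outermost of its 3 RefSeq starts (GRCm38.p6, chr19:6334729-6334978, plus strand), with capitals as above.
Men1: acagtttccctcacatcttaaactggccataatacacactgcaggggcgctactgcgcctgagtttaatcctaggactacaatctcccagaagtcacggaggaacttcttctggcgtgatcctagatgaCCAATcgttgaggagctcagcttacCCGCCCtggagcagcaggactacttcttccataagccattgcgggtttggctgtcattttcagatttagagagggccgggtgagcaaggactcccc

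The Men1 window held 1 CCAAT box and 1 GC box and no E-box. CCAAT boxes were in 33.9% and GC boxes in 32.7% of all windows of this length.

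Of 13 genes of the menin and MLL methyltransferase complexes, 9 had differences above 0 and 4 below, with a median of 0.51 (0.28 from Flattop-negative replicate 1 and 0.41 from replicate 2). At an unadjusted p under 0.05, 2 of 13 were called higher and 0 lower, near the 13.8% called in either direction among all genes. Paxip1, a subunit of the KMT2C and KMT2D complexes, had 7.89, 8.20 and 7.63 on the Flattop-positive arrays, against 7.26 and 6.79 on the Flattop-negative arrays. Its difference was 0.88 ± 0.27 (SE; limma adjusted p = 0.285), without overlap. Kmt2b, a methyltransferase that binds menin, had 6.13, 6.47 and 5.67, against 4.86 and 5.58, and a difference of 0.87 ± 0.34 (SE; limma adjusted p = 0.357). Each of these calls held at an unadjusted p under 0.05 in 2 of the 5 fits that left out 1 array. Kmt2a, the other methyltransferase that binds menin, had a difference of -0.28 ± 0.42 (SE; limma adjusted p = 0.766).

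Among 5 other CDK inhibitor genes, 2 differences were above 0 and 3 below, with a median of -0.15. At an unadjusted p under 0.05, 1 of 5 was called lower and 0 higher, against 5.37% of all genes called lower. This was Cdkn1c, which encodes the Cip/Kip inhibitor p57. It had 4.51, 4.56 and 4.25 on the Flattop-positive arrays, against 5.17 and 5.06 on the Flattop-negative arrays. The groups did not overlap, but Flattop-positive replicate 3 lay under the floor, and the floor itself was higher on the Flattop-negative arrays. The difference was -0.67 ± 0.20 (SE; limma adjusted p = 0.279), and the call held in 4 of the 5 fits without 1 array.

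Of 7 genes for cyclin E, CDK2 and the CDK-activating kinase, none was called at an unadjusted p under 0.05 (0 higher and 0 lower), with 3 differences above 0 and a median of -0.02. The smallest p belonged to Cdc25a, a phosphatase that activates CDK2, with 6.71, 6.68 and 6.14, against 6.11 and 5.45 (difference 0.73 ± 0.31, SE; limma adjusted p = 0.374). Mnat1, an assembly factor of the CDK-activating kinase, followed with 0.64 ± 0.29 (SE; limma adjusted p = 0.401). In 3 of the 7 genes Flattop-negative replicate 1 lay above and replicate 2 below all Flattop-positive arrays, the order seen for Cdkn1b. Of 13 pocket protein and E2F genes, 6 had differences above 0 and none was called, with a median of -0.01. E2f4, a repressor E2F, had 0.73 ± 0.43 (SE; limma adjusted p = 0.481), and E2f3, an activator, had -0.35 ± 0.22 (SE; limma adjusted p = 0.499).

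Of 10 genes for turnover and folding of D cyclins, CDK4 and p27, 8 had differences above 0, with a median of 0.35 that was -0.07 from Flattop-negative replicate 1 and 0.61 from replicate 2. At an unadjusted p under 0.05, 1 of 10 was called higher and 0 lower, near the 8.48% of all genes called higher. This was Cdc37, the co-chaperone that hands CDK4 to Hsp90. It had 7.35, 7.56 and 7.23 on the Flattop-positive arrays, against 5.93 and 6.90 on the Flattop-negative arrays. Like Cdk4 it was lowest on replicate 1, and its difference was 0.96 ± 0.33 (SE; limma adjusted p = 0.316), 1.44 from replicate 1 and 0.48 from replicate 2. The Cdc37 call held in 1 of the 5 fits without 1 array.

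Of 15 upstream regulators, 9 had differences above 0 and 6 below, with a median of 0.15, and 2 were called higher and 0 lower, again near the 13.8% of all genes called in either direction. Akt1, a kinase of insulin signalling, had 7.59, 7.41 and 6.93, against 5.49 and 6.84, a difference of 1.15 ± 0.45 (SE; limma adjusted p = 0.353). Stat5a, which carries the prolactin signal, had 5.98, 6.19 and 6.16, against 5.10 and 5.79, a difference of 0.66 ± 0.26 (SE; limma adjusted p = 0.361). Both were lowest on Flattop-negative replicate 1. The Akt1 call held in 2 and the Stat5a call in 1 of the 5 fits without 1 array.

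**Figure D3:**
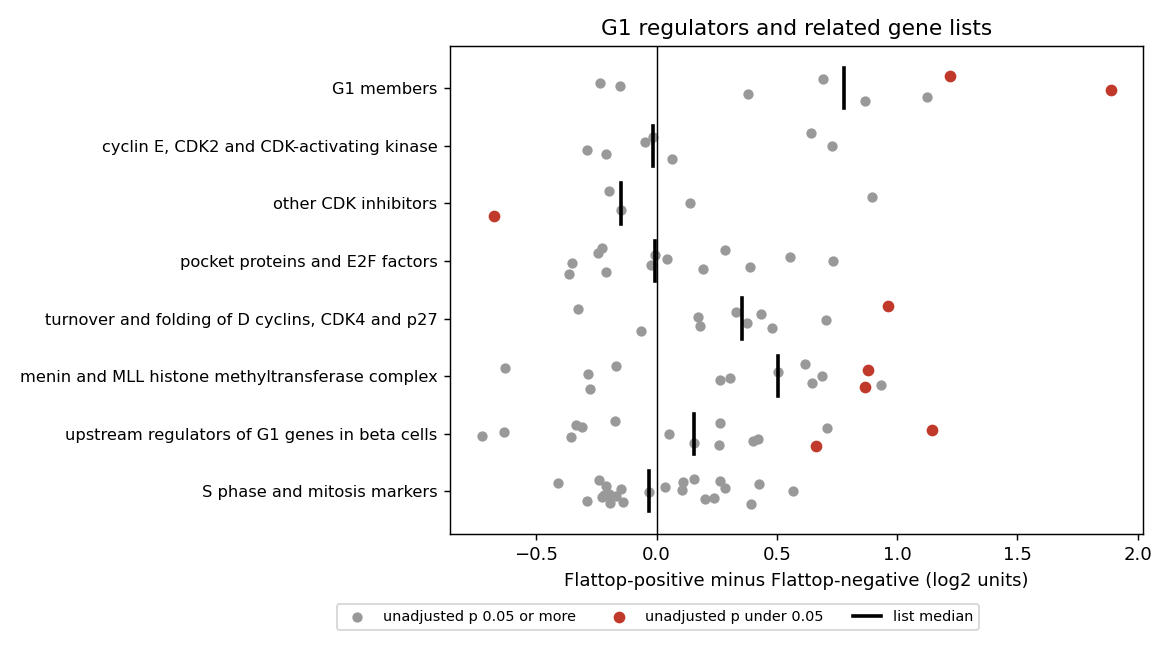
Difference in log2 signal (x axis) of each gene in the member list and 7 related lists (y axis). Red points have an unadjusted limma p under 0.05, grey points do not, and black bars are list medians, 0.78 for the members, 0.51 for the menin and MLL list and -0.03 for S phase and mitosis markers.

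No gene listed for the phases after G1 passed the threshold in either direction. Of 23 S phase and mitosis markers, 11 had differences above 0 and 12 below, with a median of -0.03, and 0 were called at an unadjusted p under 0.05. Only 8 of the 23 were above the floor on all 5 arrays, and 2 were under it on all. A difference in the dim genes could therefore be missed. The smallest p belonged to Mcm7, a helicase subunit, at 0.57 ± 0.34 (SE; limma adjusted p = 0.482). Mcm7 lay under the floor on both Flattop-negative arrays, so the size of its difference is uncertain. Next came Cdc20, an activator of the anaphase-promoting complex, at -0.41 ± 0.36 (SE; limma adjusted p = 0.605). Flattop-positive replicate 3 was the highest of the 5 arrays for 18 of these 23 genes (78.3%), against 13.6% of all genes. On that array Ccnd1, Ccnd3, Cdk6 and Men1 were at their lowest within the Flattop-positive group, and Cdk4 and Cdkn2c at their highest.

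By centred profile over the 5 arrays, the members most alike were Ccnd1 and Men1, with a root mean square difference of 0.38 log2 units, and next Ccnd1 and Ccnd2 with 0.42. Cdkn1b and Cdk4 were the least alike, at 1.80. Among other genes, Zfp598, Tprgl and Apeh came nearest to Ccnd2 (0.04 to 0.08) and Unc93b1, Dgkz and Tyk2 to Ccnd1 (0.06 to 0.08). Fis1, Cox4i1 and Ppia were nearest to Cdk4 (0.10 to 0.13), and Ppm1g, Arf1 and Fn3krp to Men1 (0.05 to 0.06). Vhl, Fam193a and Pprc1 were nearest to Ccnd3, and Ppp4r1, Nab2 and Nek8 to Cdk6. Tmed5, Cwf19l2 and Nol11 came nearest to Cdkn1b, and Xpnpep3, Bub1 and Rexo4 to Cdkn2c at 0.17 to 0.22. A profile of 5 arrays has few points, so these are descriptions.

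Other lists also moved with single arrays. The 14 dissociation and stress genes had medians of 7.72, 6.39 and 10.06 on the Flattop-positive arrays, against 6.77 and 9.70 on the Flattop-negative arrays, so that 1 array of each group was high. Within the Flattop-negative pair, 6 of the 8 members (all but Ccnd3 and Cdkn1b) were higher on replicate 2, the array with high stress genes, as were 54.5% of all genes and the dimmer Cdkn1b probe set. Within the Flattop-positive group, Ccnd1, Ccnd3, Cdk6 and Men1 were lowest on the array with high stress genes, while Cdk4 and Cdkn2c were highest there. The share of all genes lowest on that array was not counted. Immune markers (14 genes, 4 of them under the floor on all arrays) had summed linear signals of 356 to 467 on the Flattop-positive arrays, against 323 and 1203 on the Flattop-negative arrays, where Lyz2 alone made up much of the sum on replicate 2. Without Lyz2 the sums were 332 to 450, against 310 and 521, and over the whole list 2 of 14 differences were above 0. The complement gene C1qa went the other way, with 7.15, 6.98 and 6.02, against 4.95 and 5.84 (difference 1.32 ± 0.45, SE; limma adjusted p = 0.314). The related genes C1qb and C1qc did not, with differences of -0.42 and -0.91. C1qb was above the floor on 2 arrays and C1qc on 3. Stellate markers (11 genes, 3 under the floor throughout) had 236 to 330, against 294 and 865, and without Vim 204 to 280, against 261 and 479. Endothelial markers (10 genes, 6 under the floor throughout) had 146 to 149, against 165 and 227. In the stellate and endothelial lists, 0 of 11 and 0 of 10 differences were above 0, against 8136 of 19938 genes. But only 5 of the 11 and 0 of the 10 genes were above the floor on all 5 arrays. The floor was higher on the Flattop-negative arrays, so all genes are not a like background for these dim lists. Ptprc, the pan-leukocyte gene, and Cdh5, of endothelial cells, were under the floor on all 5 arrays.

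Alpha cell markers (7 genes, 1 under the floor throughout) had summed signals of 12710 to 15160, against 9898 and 17860. Their median difference was -0.28 (0.30 from Flattop-negative replicate 1 and -0.51 from replicate 2), with 3 above 0 and 4 below. The list's array medians, 5.53 to 5.69 against 7.69 and 7.09, overstate this, since on both Flattop-negative arrays the middle gene was Smarca1, which had a difference of -1.87. Markers of δ, PP and ε cells (8 genes, 1 under the floor throughout) had summed signals of 15710 to 23920, against 4045 and 32590, and a median difference of -0.17, with 3 above 0 and 5 below. Acinar markers (10 genes, 3 under the floor throughout) had 186 to 226, against 262 and 476, with 0 of 10 differences above 0. Only 1 of the 10 was above the floor on every array. Duct markers (7 genes, 2 under the floor throughout) had 758 to 1113, against 246 and 638. The duct sums rested on Krt7 (difference 1.85). Without it they were 137 to 227, against 138 and 308, and the list's median difference was -0.02, with Sox9 at -0.74. The part of these marker levels in the members' values was not tested.

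**Figure D4:**
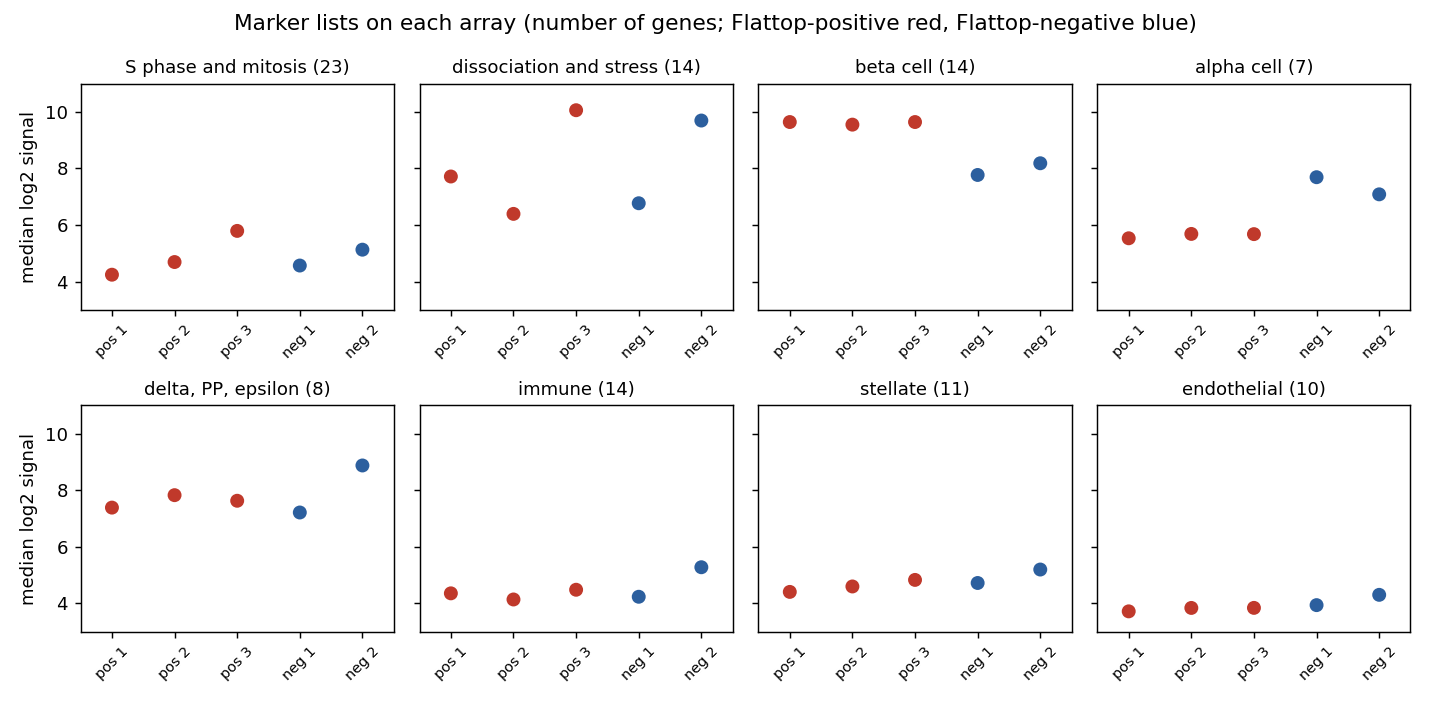
Median log2 signal (y axis) of 8 marker lists on each array (x axis; pos, Flattop-positive replicates 1 to 3, red; neg, Flattop-negative replicates 1 and 2, blue), with the number of genes in each title. β-cell medians lie at 9.55 or above on the Flattop-positive arrays, against 7.77 and 8.18 on the Flattop-negative ones, and stress genes are high on Flattop-positive replicate 3 and Flattop-negative replicate 2. The alpha cell medians on the Flattop-negative arrays are the values of Smarca1.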

How the data were processed

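The authors deposited 1 log2 signal for each probe set and array. The submitters' processing notes name RMA and Affymetrix Expression Console 1.3.0.187. RMA subtracts background, brings arrays to a common distribution and summarises probes. A genome build was not given in the sources used here. Array medians were 4.74 to 4.98. Detection calls were not used, and precision is limited by how few arrays there are.

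Of 35556 probe sets, 21789 carried 1 gene symbol, 1621 several and 12146 none in the platform annotation. Per gene, the single-symbol probe set with the highest mean was used. IDs of 21698 probe sets matched RefSeq's GRCm38.p6 gene table. Groups were fitted in limma 3.58.1 (R 4.3.3) with group as the only term, with two-sided p-values adjusted by Benjamini-Hochberg over the genes tested. The labels give pools of mice as replicates, so p-values weigh the group difference against the spread between pools, moderated over all genes.

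Genes named are the 9 members, genes of 7 pathway lists at an unadjusted p under 0.05 (otherwise the 2 with the smallest p), and the 3 nearest profiles per member, without gene models, small RNAs and chemoreceptor genes. Other genes were named after their values were seen. Members and lists were chosen with earlier results of these data known. In 10 simulated runs over 19938 genes, the limma model called 0.6% of genes changed by 1 log2 unit at an adjusted p of 0.05. It called 59.6% of those changed by 2. Each run changed 200 genes and gave every array the same independent spread for a gene. The rates hold for that setting and are not the power of the comparison made here. Promoters are from RefSeq. Alternatives were each array left out, the replicate number as a block, dim genes left out, 3 normalisations, 2 probe set rules, a variance trend and array weights.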

Additional observations from a re-analysis of the deposited data

How the results depend on the processing

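Of 113 recomputed member differences, 106 kept their direction and their side of the adjusted threshold. Part of this count was fixed beforehand. Leaving out dim genes, testing all probe sets or adding a variance trend cannot change a member's difference. Nor can the mean of probe sets for members with 1 probe set. The Cdkn1b difference reversed without Flattop-negative replicate 1 (0.85), with the mean of its probe sets (0.22) and with its other probe set (0.68). That of Cdk6 reversed without Flattop-negative replicate 2 (0.75) and after cyclic loess (0.054). Leaving out 1 array, Cdkn1b ran from -1.32 to 0.85 and Cdk6 from -1.06 to 0.75. The remaining 2 changes, in side of the threshold, were Ccnd2 (1.94) and Cdk4 (3.10) without Flattop-negative replicate 2. That fit left 1 Flattop-negative array, so its spread came from the Flattop-positive arrays alone. The cause was not tested.

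With 1 array left out, 0 to 434 genes passed limma's adjusted threshold of 0.05, the 434 without Flattop-negative replicate 2. At an unadjusted p under 0.05 there were 1198 to 5390 genes, against 2760 with all arrays, 1 to 6 members, and a member median of 0.43 to 1.22. The 6 members without Flattop-negative replicate 2 were Men1, Cdk4, Ccnd1, Ccnd2 and Cdk6, higher, and Cdkn1b, lower. The unadjusted count was 1655 with dim genes left out (fewer genes tested), 1766 on repeated quantile normalisation, 1630 after cyclic loess and 1662 with array weights. Men1 was the 1 member called on repeated quantile normalisation and after cyclic loess. The split into higher and lower genes was 1690 to 1070 as deposited, 1980 to 670 with arrays centred, 1406 to 249 with dim genes left out, 878 to 752 after cyclic loess and 999 to 767 on repeated quantile normalisation. It turned to 1237 to 1697 with a variance trend, 2599 to 2736 without Flattop-negative replicate 1 and 2678 to 2712 without replicate 2. The median of all genes moved to between -0.03 and -0.01 with centring, loess or repeated quantile normalisation, and to 0.10 with dim genes left out.

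The replicate numbers are not stated to pair pools. Deviations of same-numbered arrays correlated at 0.182 and -0.137, and those of Flattop-positive replicate 3 and Flattop-negative replicate 2 at 0.225. The deviations of the 2 Flattop-negative arrays mirror each other, so these values are not separate checks and cannot decide the pairing. With the replicate number as a block, 1775 genes and 2 members (Ccnd1 and Men1) had an unadjusted p under 0.05, and 0 genes passed the adjusted threshold. That fit gives Flattop-positive replicate 3 a level of its own, so it does not enter the difference. Marker sums without Lyz2, Vim or Krt7 were chosen after seeing the data. Signals near the floor limit Cdk6 and Cdkn2c.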
